A study of Danio rerio with 7 samples.

Results

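The regions described are the binding peaks and histone mark domains that lie on unplaced sequences of zebrafish assembly Zv8, those whose name does not start with chr. They were found by name alone and numbered 2357 of the 38913 intervals in the 4 deposited lists, spread over 972 sequences. Chromatin immunoprecipitation followed by sequencing (ChIP-seq) had been run on whole wild-type Tu embryos at the bud stage, the close of gastrulation. Each of the 4 targets had 1 library and 1 list, and per the labels each ChIP used a pool of 500 embryos. Cdx4 and Sall4 both carried a Myc tag and were pulled down with the same anti-Myc antibody, and H3K27ac and H3K4me3 were pulled down with antibodies against the marks. Some embryos were injected with mRNA when collected at the single-cell stage and others were left alone. The labels do not tie either to a library. A wild-type embryo left alone makes no Myc-tagged Cdx4 or Sall4, so the libraries of these factors imply injected embryos. All libraries came from whole embryos, so no value belongs to a single tissue. A tagged protein stands in for the endogenous factor and may not occupy the same sites. The 3 input libraries were not analysed here.

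Cdx4 is a caudal-family homeodomain factor that acts upstream of Hox genes in posterior mesoderm and is needed for blood formation in zebrafish. Sall4 is a zinc finger factor of the spalt family known for its role in stem and progenitor cells. H3K27ac marks active enhancers and promoters, and H3K4me3 marks promoters. An assembly leaves a sequence unplaced when it could not be anchored to a chromosome, so genes and regulatory elements on it are missed by any analysis that keeps chromosomes only. No genome or annotation of assembly Zv8 was used here, so no gene or base sequence is given for any region, and regions are named by their sequence and positions.

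The H3K27ac and Cdx4 lists had the largest shares of their intervals on unplaced sequences, and the Sall4 list the smallest. H3K27ac had 339 of 4599 domains there (7.37%, exact binomial 95% interval 6.63 to 8.16%). Cdx4 had 366 of 5166 peaks (7.08%, 6.40 to 7.82%), H3K4me3 1188 of 19401 domains (6.12%, 5.79 to 6.47%) and Sall4 464 of 9747 peaks (4.76%, 4.35 to 5.20%). The Cdx4 and Sall4 intervals did not overlap. Among intervals above the median score of their own list they did, narrowly, with 5.57% for Cdx4 (4.71 to 6.52%) and 4.14% for Sall4 (3.60 to 4.74%). There H3K27ac had 7.68% (6.62 to 8.85%) and H3K4me3 5.24% (4.80 to 5.70%). Intervals of shares cover counting error only, and with 1 library per target no test over libraries was possible for any comparison below. Over the bases covered by domains, unplaced sequences held 6.18% of the H3K27ac total and 5.30% of the H3K4me3 total.

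The larger Cdx4 share lay in peaks without Sall4. Of the Cdx4 peaks that overlapped no Sall4 peak by at least 1 bp, called Cdx4-only, 237 of 2815 were unplaced (8.42%, exact interval 7.42 to 9.51%). Of those that overlapped a Sall4 peak, 129 of 2351 were (5.49%, 4.60 to 6.49%), and these intervals did not overlap. Sall4 peaks that overlapped Cdx4 had a like value of 125 of 2317 (5.39%, 4.51 to 6.39%), since the pairs are counted from the other factor. Sall4-only peaks had 339 of 7430 unplaced (4.56%, 4.10 to 5.06%). Among Cdx4 peaks above the median score the gap was smaller, with 6.10% of Cdx4-only peaks (4.79 to 7.65%) and 5.14% of those with Sall4 (4.06 to 6.41%) unplaced.

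The unplaced sequences had names of 2 kinds. Names beginning Zv8_NA belonged to 863 sequences with 1854 intervals, and names beginning Zv8_scaffold to 109 sequences with 503 intervals. The length of a sequence is not in the lists, so the last position that any interval reached was used as a lower bound. That position had a median of 12.9 kb on Zv8_NA sequences (quartiles 2.80 and 37.9 kb) and 120 kb on Zv8_scaffold sequences (quartiles 56.2 and 204 kb). Zv8_NA sequences held 85.2% of the unplaced Cdx4 peaks, 73.5% of the Sall4 peaks, 81.1% of the H3K27ac domains and 77.9% of the H3K4me3 domains. Together the 972 sequences were reached over 42.3 Mb, which is 3.10% of what the lists reached on all sequences. No density was taken from this, because a sequence enters the total only where it holds an interval.

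Unplaced Cdx4 peaks overlapped Sall4 less often than Cdx4 peaks on chromosomes. This restates the division of the Cdx4 list given above for Cdx4-only and shared peaks, so neither is separate support for the other. A Sall4 peak overlapped 129 of 366 unplaced Cdx4 peaks (35.2%, exact interval 30.4 to 40.4%), against 2222 of 4800 on chromosomes (46.3%). The difference was -11.0 points (Newcombe 95% interval -16.0 to -5.83). All 25 chromosomes had a higher share, from 37.3% on chromosome 16 to 54.8% on chromosome 14. Part of the difference went with score. When the chromosome shares were weighted to the scores of the unplaced peaks, taken in 4 equal steps of rank, 43.1% was the share to compare with, and the difference was -7.90 points. On unplaced sequences reached to 50 kb or more the difference was -0.509 points (-8.04 to 7.21).

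The Sall4 list gave no such deficit. A Cdx4 peak overlapped 125 of 464 unplaced Sall4 peaks (26.9%, exact interval 23.0 to 31.2%), against 2192 of 9283 on chromosomes (23.6%). The difference of 3.33 points had an interval that included 0 (-0.607 to 7.63). The unplaced share was above that of 22 chromosomes and below that of 3. The kinds of sequence lay on opposite sides of the chromosome share. Zv8_NA sequences had 29.9% (102 of 341, 25.1 to 35.1%) and Zv8_scaffold sequences 18.7% (23 of 123, 12.2 to 26.7%). The overlapping sites themselves looked alike in both places. The 130 unplaced pairs lay on 75 sequences, and their centres were a median of 25 bp apart, against 27 bp for the 2279 pairs on chromosomes. The centres were at most 25 bp apart in 50.8% of unplaced pairs, against 47.7% on chromosomes. Across pairs, which are not independent, the Spearman correlation of Cdx4 and Sall4 scores was 0.320 in the 130 unplaced pairs and 0.236 in the 2279 on chromosomes.

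**Figure D1:**
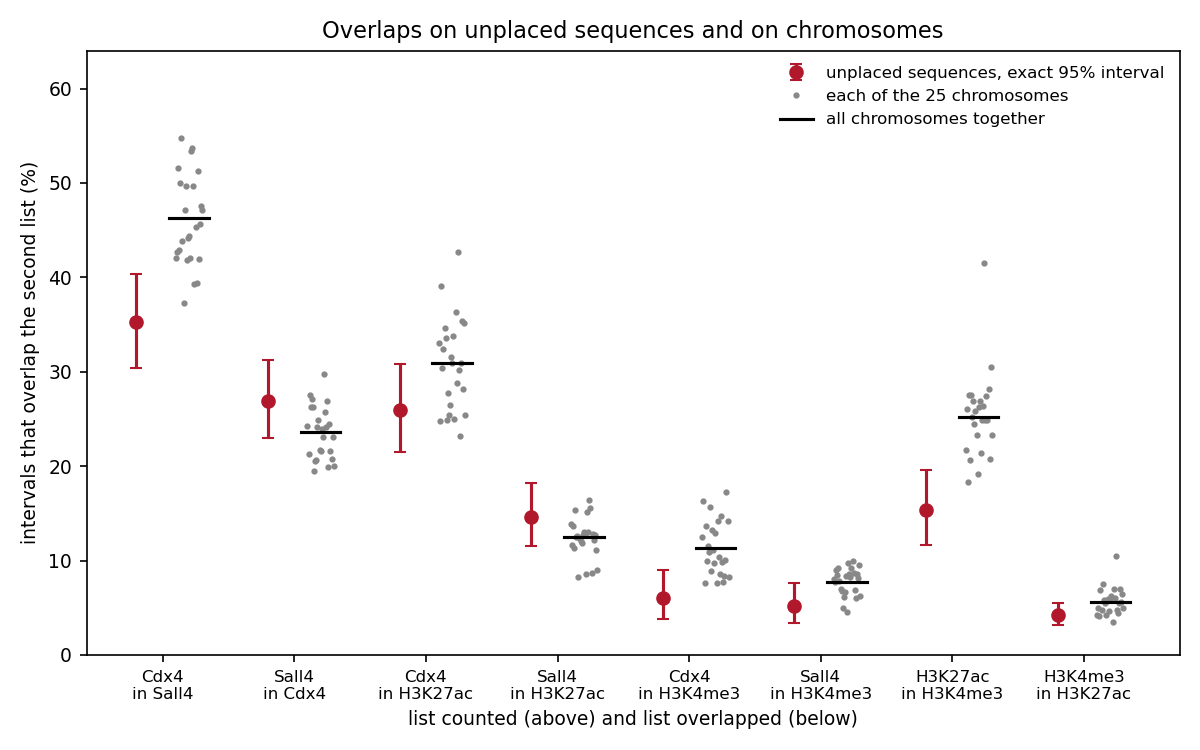
Share of intervals (y axis, percent) of the list named first that overlap the list named second by at least 1 bp. Red points are unplaced sequences with exact 95% intervals, grey dots the 25 chromosomes and black lines all chromosomes together; the unplaced share lies below all 25 chromosomes for Cdx4 in Sall4 (35.2%), Cdx4 in H3K4me3 (6.01%) and H3K27ac in H3K4me3 (15.3%).

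H3K27ac lay at fewer unplaced Cdx4 peaks and at slightly more unplaced Sall4 peaks than on chromosomes, with both differences near the limit of counting error. An H3K27ac domain overlapped 95 of 366 unplaced Cdx4 peaks (26.0%, exact interval 21.5 to 30.8%), against 30.9% on chromosomes. The difference was -4.96 points, and its interval ended just below 0 (-9.39 to -0.0624). It became 1.61 points when only unplaced sequences reached to 50 kb or more were kept, and 4.36 points among intervals above the median score of each list, so its direction was not stable. The kinds of sequence differed here too. The share was 22.8% on Zv8_NA (71 of 312, 18.2 to 27.8%) and 44.4% on Zv8_scaffold (24 of 54, 30.9 to 58.6%). For Sall4 the count was 68 of 464 (14.7%, 11.6 to 18.2%), against 12.5% on chromosomes, a difference of 2.18 points (-0.827 to 5.75).

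Unplaced Cdx4 sites differed in acetylation by whether Sall4 was there too. Unplaced Cdx4 peaks with Sall4 lay in H3K27ac domains in 49 of 129 cases (38.0%, exact interval 29.6 to 46.9%), against 33.0% of such peaks on chromosomes (734 of 2222). Unplaced Cdx4-only peaks did so in 46 of 237 cases (19.4%, 14.6 to 25%), against 29.1% on chromosomes (750 of 2578, 27.3 to 30.9%). The lower share on unplaced sequences was seen among the Cdx4-only peaks, in a comparison not matched for score. Without Zv8_NA542 and Zv8_NA543, 2 sequences with no H3K27ac domain, 211 of these 237 peaks remain. Unplaced Sall4-only peaks were in H3K27ac domains in 23 of 339 cases (6.78%, 4.35 to 10.0%), against 6.40% on chromosomes.

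H3K4me3 was less frequent at unplaced Cdx4 sites. A domain overlapped 22 of 366 unplaced Cdx4 peaks (6.01%, exact interval 3.80 to 8.96%), against 11.4% on chromosomes. The difference was -5.34 points (-7.56 to -2.30), and all 25 chromosomes had a higher share, the lowest being 7.59% on chromosome 21. With both lists cut to intervals above their median score it was -2.30 points (-5.02 to 2.62). For Sall4 it was 24 of 464 (5.17%, 3.34 to 7.60%), against 7.70% on chromosomes, a difference of -2.53 points (-4.29 to -0.0649) that was near the limit of counting error and was -1.13 points (-3.32 to 1.94) without the 10 fullest sequences. Only 2 of the 25 chromosomes had a lower Sall4 share. Cdx4-only peaks were in H3K4me3 domains in 6.75% of unplaced cases (16 of 237, 3.91 to 10.7%), against 14.2% on chromosomes. No domain of either mark overlapped 257 of the unplaced Cdx4 peaks (70.2%, 65.2 to 74.9%) and 374 of the unplaced Sall4 peaks (80.6%, 76.7 to 84.1%). On chromosomes these shares were 62.5% for Cdx4 and 81.3% for Sall4.

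H3K27ac domains overlapped H3K4me3 less on unplaced sequences. An H3K4me3 domain overlapped 52 of 339 unplaced H3K27ac domains (15.3%, exact interval 11.7 to 19.6%), against 1074 of 4260 on chromosomes (25.2%). The difference was -9.87 points (-13.6 to -5.46). Again all 25 chromosomes had a higher share, from 18.3% on chromosome 11 to 41.6% on chromosome 25. In the other direction 50 of 1188 unplaced H3K4me3 domains overlapped H3K27ac (4.21%, 3.14 to 5.51%), against 5.62% on chromosomes, a difference of -1.41 points (-2.47 to -0.0709) whose interval included 0 without the 10 fullest sequences (-2.40 to 0.0362). Factors were also found in fewer unplaced H3K27ac domains. A Cdx4 peak lay in 86 of the 339 (25.4%, 20.8 to 30.4%), against 31.2% on chromosomes. A Sall4 peak lay in 59 (17.4%, 13.5 to 21.9%), against 24.3% on chromosomes, and 3 chromosomes had a lower share than the unplaced sequences.

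How far the lists reached along a sequence went with some of these overlaps and not with others. On unplaced sequences reached to under 5 kb, 14 of 58 Cdx4 peaks overlapped Sall4 (24.1%, exact interval 13.9 to 37.2%). On those reached to 5 to 50 kb it was 39 of 142 (27.5%, 20.3 to 35.6%), on those reached to 50 to 100 kb 39 of 89 (43.8%, 33.3 to 54.7%), and on those reached beyond 100 kb 37 of 77 (48.1%, 36.5 to 59.7%). The last 2 values lay around the chromosome share. Over the same steps H3K27ac overlapped 19.0%, 21.1%, 24.7% and 41.6% of the Cdx4 peaks. For Sall4 peaks overlapping Cdx4 the 4 values were 44.8%, 25%, 38.0% and 19.6%, with no steady order. The same held for Cdx4 peaks in H3K4me3 domains (5.17%, 5.63%, 7.87% and 5.19%). It held as well for Sall4 peaks in H3K27ac domains (20.7%, 12.2%, 14% and 16.2%) and in H3K4me3 domains (3.45%, 7.69%, 5% and 3.35%). H3K4me3 overlapped 6.85% of H3K27ac domains (2.26 to 15.3%) at the shortest reach. The further steps had 17.9%, 15.5% and 18.7% (11.3 to 28.2% at the longest), with no steady order among them. The reach comes from the same intervals as the overlaps, so the 2 are not independent, and whether length itself moves the overlap was not tested.

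**Figure D2:**
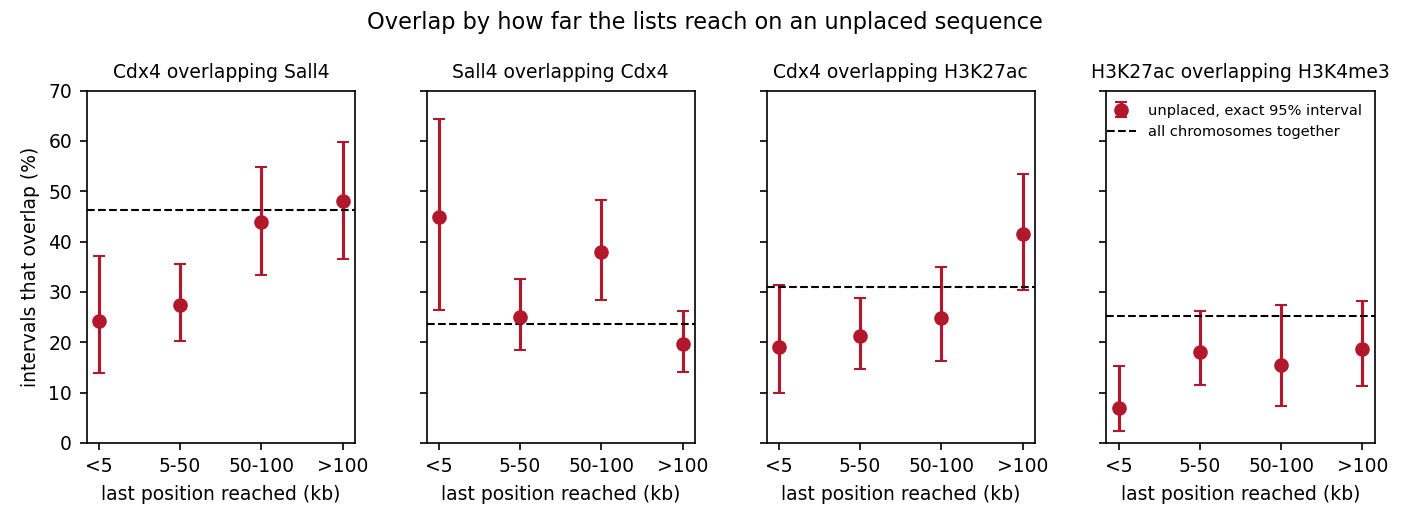
Share of unplaced intervals that overlap a second list (y axis, percent) by the last position reached on the sequence (x axis, kb), in 4 panels. Points carry exact 95% intervals and dashed lines give the share on all chromosomes together. For Cdx4 overlapping Sall4 the share is 24.1% at the shortest and 48.1% at the longest reach, against 46.3% on chromosomes.

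The deposited score of an interval has no stated meaning and was used only as a rank within its list. Unplaced Cdx4 peaks were crowded among the lowest-scoring 25% of their list, which held 143 of 366 (39.1%, exact interval 34.0 to 44.3%), against 24.0% of Cdx4 peaks on chromosomes. The difference was 15.1 points (10.1 to 20.3), and no chromosome reached that share, the highest being 30.6% on chromosome 9. The highest-scoring 25% held 73 unplaced Cdx4 peaks (19.9%, 16.0 to 24.4%), against 25.1% on chromosomes. That difference was -5.16 points (-9.13 to -0.600). The lowest 10% of the list alone held 87 of the 366 (23.8%), against 9.12% of peaks on chromosomes. The crowding was stronger on Zv8_NA sequences, with 128 of 312 peaks in the lowest 25% (41.0%, 35.5 to 46.7%), than on Zv8_scaffold sequences, with 15 of 54 (27.8%, 16.5 to 41.6%), although the intervals overlap.

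The other lists were displaced less in the lowest 25%, but in the highest 25% H3K4me3 differed by more points than Cdx4. The lowest 25% held 138 of 464 unplaced Sall4 peaks (29.7%, 25.6 to 34.1%), against 24.9% on chromosomes, a difference of 4.87 points (0.791 to 9.27). The highest 25% held 21.3%, against 25.3% on chromosomes, with an interval of the difference that included 0 (-7.54 to 0.104). H3K27ac domains had 21.8% in the highest 25%, against 25.3% on chromosomes, and 23.3% in the lowest 25%, against 25.1% on chromosomes, and both intervals of the difference included 0. H3K4me3 domains were short of high scores, with 217 of 1188 in the highest 25% (18.3%, 16.1 to 20.6%), against 25.4% on chromosomes. That difference was -7.15 points (-9.34 to -4.77), and chromosome 4 was the only one with a lower share, at 18.1%. The lowest 25% held 27.9% of unplaced H3K4me3 domains, against 24.8% on chromosomes, a difference of 3.15 points (0.594 to 5.84).

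**Figure D3:**
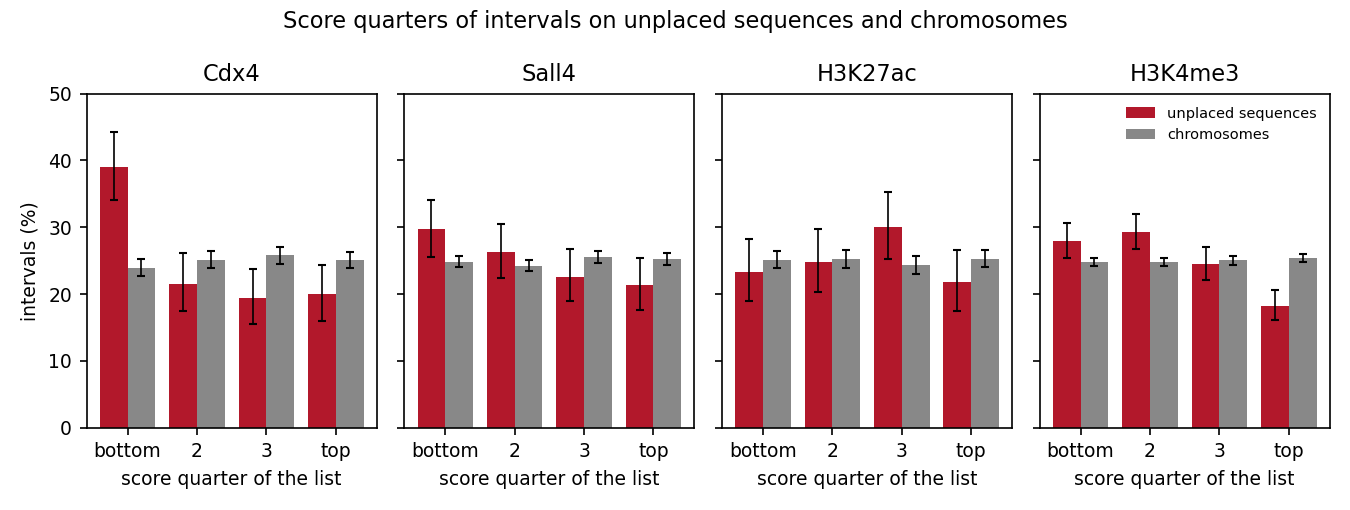
Share of intervals (y axis, percent) in each of 4 equal steps of score rank (x axis, lowest to highest), in 1 panel per list. Red bars are unplaced sequences and grey bars chromosomes, with exact 95% intervals; the tallest red bar is the lowest 25% of Cdx4, 39.1% against 24.0% on chromosomes.

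Within each of the 4 steps of score rank the Cdx4 overlap with Sall4 was lower on unplaced sequences. The steps were not compared with each other. In the lowest 25% it was 20.3% (29 of 143, exact interval 14.0 to 27.8%), against 31.3% on chromosomes. In the next 2 steps up it was 32.9% (26 of 79), against 41.1% on chromosomes, and 50.7% (36 of 71), against 51.5% on chromosomes. In the highest 25% it was 52.1% (38 of 73), against 60.5% on chromosomes, and in these 3 upper steps the chromosome share lay within the exact interval of the unplaced share. Scores were not matched within a step. The lowest-scoring part of the Cdx4 list counted on its own above held 87 of the 143 unplaced peaks in the lowest 25%. On chromosomes it held 438 of 1150. Whether score within that step accounts for the lower overlap there was not tested. H3K27ac at unplaced Cdx4 peaks was 53.4% in the highest 25% (39 of 73), against 49.6% on chromosomes, and 11.2% in the lowest 25% (16 of 143, 6.53 to 17.5%), against 18.3% on chromosomes. Overlap of Sall4 with Cdx4 was above its chromosome share in each step, and by more than the exact interval in the lowest step. In the lowest 25% it was 26 of 138 (18.8%, 12.7 to 26.4%), against 11.5% on chromosomes. In the next 2 steps up it was 18.0%, against 16.5% on chromosomes, and 23.8%, against 23.3% on chromosomes. In the highest 25%, 52 of 99 unplaced peaks overlapped Cdx4 (52.5%, 42.2 to 62.7%), against 42.7% on chromosomes, just within the interval. In the same step 27 of 99 unplaced Sall4 peaks lay in H3K27ac domains (27.3%, 18.8 to 37.1%), against 17.6% on chromosomes. The lower steps, from the top down, had 14.3%, 10.7% and 9.42%, against 12.8%, 11.1% and 8.27% on chromosomes.

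H3K4me3 domains were narrower on unplaced sequences, and H3K27ac domains had fewer wide members. The median width of H3K27ac domains was 299 bp (interval of the median 299 to 399 bp), against 399 bp on chromosomes, and the mean 397 bp against 480 bp. Widths fell mostly on steps of 100 bp, so a median moves in such steps. Domains within 1 kb of the first base or of the last position reached on a sequence were then left out. The H3K27ac medians were both 399 bp among those kept, 157 of 339 on unplaced sequences. Lengths are not known, so the last position reached need not be an end, and whether true ends bear on width was not tested. H3K27ac domains over 1500 bp wide were 2 of 339 (0.590%, exact interval 0.0715 to 2.11%), against 3.17% on chromosomes (135 of 4260). H3K4me3 domains had a median of 599 bp (499 to 599 bp), against 699 bp on chromosomes. Those over 1500 bp were 60 of 1188 (5.05%, 3.88 to 6.45%), against 7.90% on chromosomes. The lowest median of any chromosome was 499 bp for H3K4me3 and 299 bp for H3K27ac, so the unplaced medians lay within the range of the chromosomes. A domain that began at the first base of its sequence occurred 12 times, 11 times in the H3K4me3 list and 1 time in the H3K27ac list, always on Zv8_NA sequences.

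The widest unplaced H3K27ac domain, 2199 bp at 800 to 2998 on Zv8_NA8719, ranked 29 of 4599 by score (1597) and was the only interval on its sequence. The next in width were 1599 bp at 4000 to 5598 on Zv8_NA9683 (score 887), 1374 bp at 1025 to 2398 on Zv8_NA7251 (1141), 1246 bp at 20000 to 21245 on Zv8_NA479 (259) and 1078 bp at 4300 to 5377 on Zv8_NA6166 (457). None of these 5 overlapped a peak of either factor or an H3K4me3 domain. Over all widths, Cdx4 peaks lay in 25.4% of unplaced H3K27ac domains and Sall4 peaks in 17.4%, and H3K4me3 overlapped 15.3%. With domains over 500 bp wide the H3K4me3 share was 23.1%. The widest unplaced H3K4me3 domain was 3099 bp at 9200 to 12298 on Zv8_NA2834 and ranked 104 of 19401 (score 1725). Those on Zv8_NA8830 (140100 to 142698, 2599 bp), Zv8_NA2168 (4500 to 7098, 2599 bp), Zv8_NA3160 (2300 to 4798, 2499 bp) and Zv8_NA3333 (69000 to 71485, 2486 bp) followed. Among these 5, the domain on Zv8_NA8830 overlapped a Sall4 peak and the others no peak, where Sall4 peaks lay in 1.94% of all unplaced H3K4me3 domains and Cdx4 peaks in 1.77%. The domain on Zv8_NA2168 had a score of only 19, so a wide domain was not always a high-scoring one.

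Most unplaced sequences carried few intervals. A single interval was found on 532 of the 972 (54.7%), 2 to 4 on 325, and 5 or more on 115, which held 988 of the 2357 intervals (41.9%). H3K4me3 domains alone were found on 504 sequences (51.9%), H3K27ac alone on 96, Sall4 alone on 71 and Cdx4 alone on 57. All 4 lists met on 34 sequences, 23 of the Zv8_NA and 11 of the Zv8_scaffold kind. These 34 held 86 of the unplaced Cdx4 peaks (23.5%), 149 of the Sall4 peaks (32.1%), 64 of the H3K27ac domains (18.9%) and 88 of the H3K4me3 domains (7.41%). The 5 fullest of them were Zv8_scaffold3025, Zv8_NA3126, Zv8_NA3883, Zv8_scaffold3026 and Zv8_scaffold3086. Peaks on a sequence with no domain of either mark were 147 of 366 for Cdx4 (40.2%, 35.1 to 45.4%) and 122 of 464 for Sall4 (26.3%, 22.3 to 30.5%).

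The 10 fullest sequences held 219 of the 2357 intervals (9.29%), among them 21.3% of the unplaced Sall4 peaks and 17.2% of the Cdx4 peaks but 1.94% of the H3K4me3 domains. Zv8_scaffold3025 was the fullest, with 8 Cdx4 peaks, 28 Sall4 peaks, 7 H3K27ac and 2 H3K4me3 domains, and was reached to 686 kb. Of its Cdx4 peaks 7 overlapped Sall4, and 5 lay in H3K27ac domains. Over all unplaced Cdx4 peaks these shares were 35.2% and 26.0%, and on sequences reached beyond 100 kb 48.1% and 41.6%. Zv8_scaffold3026 was likewise rich in Sall4, with 15 Sall4 and 2 Cdx4 peaks. On Zv8_NA3126 the 9 Cdx4 and 8 Sall4 peaks lay between 117982 and 159841. Of these Cdx4 peaks 7 overlapped an H3K27ac domain, and each of the 7 domains there overlapped a Cdx4 peak. Zv8_NA3883 had 5 Cdx4 and 11 Sall4 peaks, Zv8_NA1016 had 4 and 10, and Zv8_scaffold2998 had 2 and 9. Zv8_NA2081 had 6 peaks of each factor and 4 H3K27ac domains, all 4 of which overlapped a Cdx4 peak. Of all unplaced H3K27ac domains 25.4% overlapped one. Zv8_scaffold3086 had 8 H3K4me3 domains, the most among these 10, and Zv8_NA3704 had 4 Cdx4 and 5 Sall4 peaks.

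**Figure D4:**
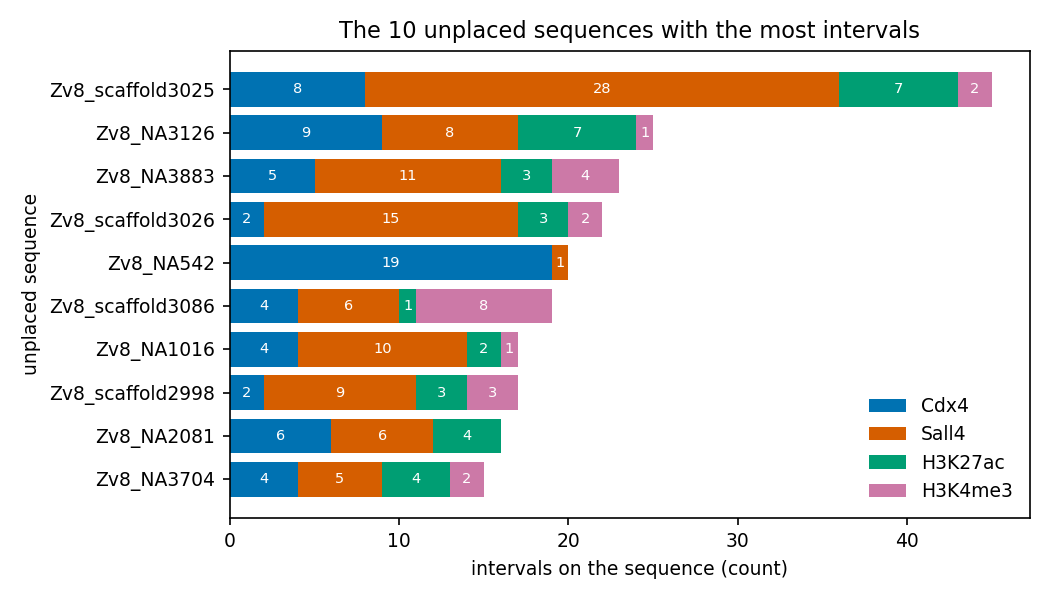
Number of intervals of each list (x axis, count) on the 10 unplaced sequences with the most intervals (y axis). Bars are divided by list with the count written in each part; Zv8_scaffold3025 has 28 Sall4 peaks, and Zv8_NA542 has 19 Cdx4 peaks, 1 Sall4 peak and no domain.

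Zv8_NA542 differed from the other 9 in what it held. Its 19 Cdx4 peaks were the most on any unplaced sequence, spread over 79.4 kb with a median of 2574 bp from one to the next. Their scores ran from 27 to 78 with a median of 40, and 15 of the 19 were in the lowest 10% of the Cdx4 list. The only Sall4 peak, at 25751 to 25850 with a score of 33, lay on exactly the positions of a Cdx4 peak with a score of 51, and there was no domain of either mark. Zv8_NA543, chosen after its values were seen, had 8 Cdx4 peaks with scores from 34 to 63 over 18.4 kb, 7 of them in the lowest 10%, and no interval of another list. Together these 2 sequences held 27 of the 366 unplaced Cdx4 peaks and 22 of the 87 in the lowest 10%. Without them the lowest 25% of the list still held 35.4% of unplaced Cdx4 peaks, and the difference from chromosomes in overlap with Sall4 was -8.53 points. Reads that match several places were handled in a way not given in the sources used here, and whether that bears on these peaks was not tested.

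Unplaced Cdx4 peaks were also tightly packed. Another Cdx4 peak started within 1 kb of 104 of the 366 (28.4%, exact interval 23.8 to 33.3%), against 20.1% on chromosomes (19.0 to 21.3%). It was 95 of 312 on Zv8_NA sequences (30.4%, 25.4 to 35.9%) and 9 of 54 on Zv8_scaffold sequences (16.7%, 7.92 to 29.3%). For Sall4 the values were 22.2% (18.5 to 26.3%) and 22.6% on chromosomes. For H3K4me3 domains they ran the other way, with 18.2% (16.0 to 20.5%) against 24.6% on chromosomes (24.0 to 25.3%). H3K27ac domains had 12.1% (8.82 to 16.0%), against 13.7% on chromosomes. A close pair counts both of its members, so these exact intervals, which treat members as independent, are too narrow. Runs of 3 or more Cdx4 peaks with steps of at most 1 kb held 38 unplaced peaks in 10 runs (10.4%), against 3.90% of peaks on chromosomes.

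The runs of 7, 6 and 4 Cdx4 peaks, named after they were seen, were on sequences with Sall4 peaks and no domain of either mark. Of all unplaced Cdx4 peaks, 40.2% were on a sequence with no domain and 37.4% on one with no Sall4 peak. On Zv8_NA6681 there were 7 Cdx4 peaks between 1126 and 2600 with scores from 59 to 215, of which 3 started at 2490, 2500 and 2501 and so overlap one another. Of these 7, 3 overlapped a Sall4 peak, and the 3 Sall4 peaks there formed a run of their own. On Zv8_NA1214 there were 6 Cdx4 peaks in a run between 19897 and 21923, with scores from 61 to 155, and 3 Sall4 peaks among them. This sequence had 10 Cdx4 peaks in all and no domain of either mark. Zv8_NA1727 carried a run of 4 Cdx4 peaks at 1875 to 3434 and one of 3 at 4781 to 6076, with 4 Sall4 peaks on the sequence and no domain. Zv8_NA1728 carried a run of 3 Cdx4 peaks at 6057 to 7353 and no interval of another list. Peaks that overlap another peak of their own list were 13 of 366 in unplaced Cdx4 (3.55%), against 2.58% on chromosomes, so a few peaks may count 1 site more than once.

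On some sequences H3K27ac domains formed groups without either factor, and on others they did not. Of all unplaced H3K27ac domains, 25.4% overlapped a Cdx4 peak and 17.4% a Sall4 peak. All 7 on Zv8_NA3126 overlapped a Cdx4 peak. Zv8_NA4521 and Zv8_scaffold3083, both chosen after their values were seen, had 10 H3K27ac domains each and no Cdx4 or Sall4 peak. On Zv8_NA4521 no H3K4me3 domain was present and the scores ran from 2 to 275. On Zv8_scaffold3083, 8 of the 10 lay between 106400 and 118298, and 2 of these overlapped an H3K4me3 domain of 1199 bp with a score of 831 at 112800 to 113998.

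**Figure D5:**
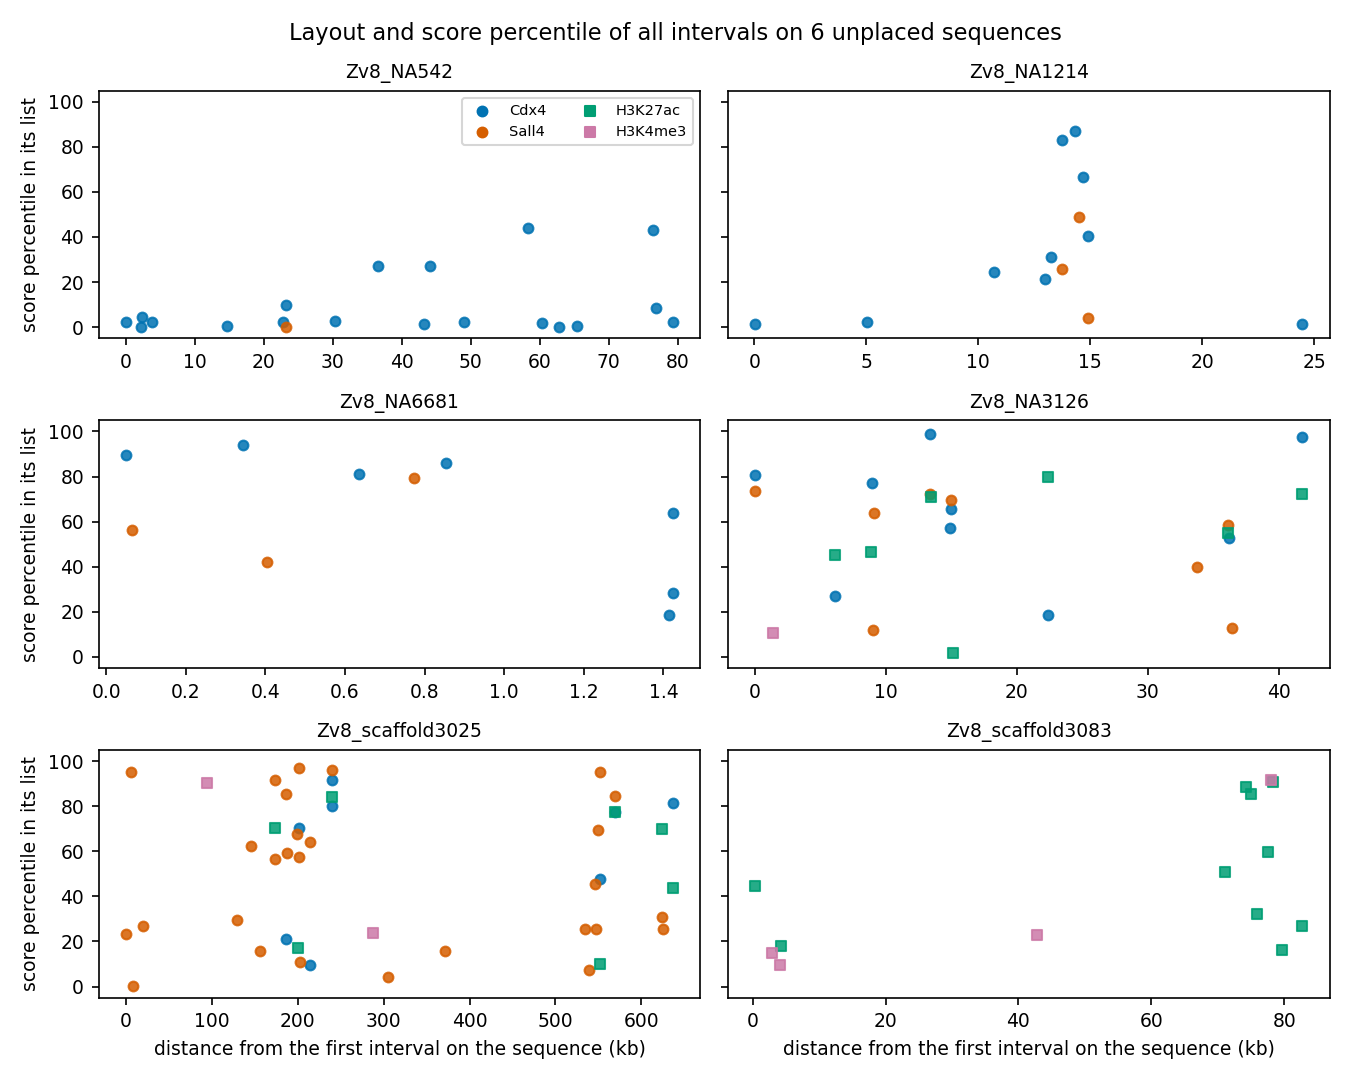
Each interval on 6 unplaced sequences, by distance from the first interval on that sequence (x axis, kb, scale differs by panel) and by score percentile within its list (y axis). Circles are peaks and squares domains, coloured by list; Zv8_NA542 shows 19 Cdx4 peaks that all score below the median of their list, and Zv8_scaffold3083 shows 10 H3K27ac domains with no peak.

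A few unplaced peaks ranked near the head of their lists. Ranks up to 100 included 3 unplaced Cdx4 and 7 unplaced Sall4 peaks. Over the whole lists 7.08% of Cdx4 and 4.76% of Sall4 peaks were unplaced. The best Cdx4 peak, at 781 to 880 on Zv8_NA6260, ranked 23 of 5166 with a score of 441. It overlapped a Sall4 peak with a score of 170 and lay in an H3K27ac domain, and these 3 intervals were the only ones on the sequence. The Cdx4 peaks on Zv8_NA3126 at 131305 to 131404 (score 367, rank 57) and at 159742 to 159841 (285, rank 132) were both in H3K27ac domains, and the first also overlapped Sall4. The peak on Zv8_NA2043 at 1684 to 1783 (336, rank 79) was in an H3K27ac domain without Sall4, and that on Zv8_NA1016 at 95151 to 95250 (291, rank 126) overlapped Sall4 without a mark. So 4 of these 5 were in H3K27ac domains and 0 in H3K4me3 domains, where among the highest-scoring 25% of the list 53.4% of unplaced Cdx4 peaks were in H3K27ac domains and 2.74% in H3K4me3 domains.

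The best unplaced Sall4 peak ranked 2 of 9747. It lay at 22837 to 22936 on Zv8_NA1548 with a score of 496, overlapped a Cdx4 peak with a score of 151 and was in no domain. A further 3 Sall4 peaks on that sequence scored 128, 300 and 179, so all 4 were in the highest 25% of the list. The next Sall4 peaks were on Zv8_NA6689 at 1976 to 2075 (score 346), Zv8_NA2777 at 10935 to 11034 (321), Zv8_NA2081 at 89702 to 89801 (318) and Zv8_NA2976 at 17347 to 17446 (303). Of these 5, 4 overlapped Cdx4, the exception being the peak on Zv8_NA6689, and none was in a domain of either mark. Among unplaced Sall4 peaks in the highest 25% of the list 52.5% overlapped Cdx4, 27.3% were in H3K27ac domains and 3.03% in H3K4me3 domains. Over all unplaced Sall4 peaks, of any score, 80.6% were in no domain.

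Among overlapping pairs, the one with the best mean rank joined the Cdx4 peak at 89753 to 89852 on Zv8_NA2081 (score 230) with the Sall4 peak just named. The same Cdx4 peak also overlapped a second Sall4 peak at 89795 to 89894 (score 188). The others were on Zv8_NA6030 at 2535 to 2634 (Cdx4 score 216, Sall4 score 292), on Zv8_NA6260 at the position given above, and on Zv8_scaffold3025 at 288943 to 289042 (189 and 218), each position being that of the Cdx4 peak. The pairs on Zv8_NA6260 and Zv8_scaffold3025 were in H3K27ac domains. Of all unplaced Cdx4 peaks with Sall4, 49 of 129 (38.0%) were in such domains.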

How the data were processed

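The authors deposited 1 list of intervals per ChIP library. The score that the authors deposited with each interval is a whole number, and neither the labels nor the files say how it was made or normalized. Cdx4 and Sall4 intervals are GPS peaks, per the interval names in the deposited files, each 100 bp wide. CASAVA 1.4 and Bowtie 0.12.7 are named in the submitters' processing notes without their roles. Depth, thresholds, the use of inputs and the handling of reads with several matches have no stated value, so a missing interval is not a missing signal. Positions were read as counted from 1, since 0 intervals start at 0.

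Intervals were split by sequence name, and an overlap was at least 1 bp. A peak said to lie in a domain shares at least 1 bp with it and need not lie wholly inside. Shares have exact Clopper-Pearson 95% intervals and differences Newcombe 95% intervals. Intervals on 1 sequence are not independent, and the 25 chromosomes show the spread along the genome. Score ranks were taken over the whole list, with tied scores sharing a rank. Alternatives changed the overlap needed, the score range, the sequences kept and the domain width. Named are the 10 fullest sequences, the 5 best peaks, pairs and widest domains, and the fullest sequences with all 4 lists. Members, lists and comparisons were chosen with earlier results of these data known. The overlap code was tested on simulated data. Confidence intervals used scipy 1.17.1, tables pandas 2.3.3 and numpy 2.4.6, and figures matplotlib 3.10.9, all under Python 3.11.15.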

Additional observations from a re-analysis of the deposited data

Results flagged for a closer look

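Between unplaced sequences and chromosomes the Cdx4 and the Sall4 list had differences of opposite sign in 2 measures, each list coming from 1 library. The share overlapping the other factor differed by -11.0 points in the Cdx4 list (-16.0 to -5.83) and by 3.33 points in the Sall4 list (-0.607 to 7.63). The share in H3K27ac domains differed by -4.96 points in the Cdx4 list (-9.39 to -0.0624) and by 2.18 points in the Sall4 list (-0.827 to 5.75). Both Sall4 intervals include 0, the Sall4 value for H3K27ac was -0.146 points without the 10 fullest sequences, and the Cdx4 value for H3K27ac was positive in 2 settings. The difference between the lists was not tested in either case. On Zv8_scaffold sequences the signs were not opposite. There 44.4% of Cdx4 and 18.7% of Sall4 peaks overlapped the other factor, against 46.3% and 23.6% on chromosomes. In H3K27ac domains lay 44.4% of Cdx4 and 15.4% of Sall4 peaks, against 30.9% and 12.5% on chromosomes. The overlapping pairs comprise 129 unplaced Cdx4 and 125 unplaced Sall4 peaks, so the first measure also counts how many unplaced peaks each list had besides them, 237 Cdx4-only and 339 Sall4-only peaks.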

How the results depend on the processing

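No paired analysis was possible because each target had 1 library. Over 24 results and 116 alternatives, 103 values stayed within the 95% interval of the reported value, 11 left it and 2 reversed a difference whose interval had left out 0. Some alternatives could not move a value and some results rest on the same intervals, so this count does not measure stability. Leaving out Zv8_NA542 and Zv8_NA543, which hold no domain, changed no share counted over domains. Values for the highest or lowest 10% of a list were judged by the interval for its 25%, a different measure. The 2 reversed values concern the H3K27ac share of Cdx4 peaks. It differed by 4.36 points (-2.67 to 12.4) with both lists cut to intervals above their median score. It differed by 1.61 points (-5.18 to 9.18) on unplaced sequences reached to 50 kb. On such sequences the Cdx4 overlap with Sall4 differed from chromosomes by -0.509 points (-8.04 to 7.21). With both lists cut to intervals above their median score, that difference was -7.89 points (-15.5 to 0.452). With the same cut of both lists, the difference of Sall4 peaks in H3K27ac domains was 6.01 points (1.43 to 11.8). Above the median score of their own list, the unplaced shares were 5.57% of Cdx4, 4.14% of Sall4, 5.24% of H3K4me3 and 6.10% of Cdx4-only intervals. Cdx4-only was there still set by the whole Sall4 list. Without the 10 fullest sequences the unplaced shares were 5.94% of Cdx4, 3.78% of Sall4, 7.40% of Cdx4-only and 4.18% of shared Cdx4 peaks, which follows in part from removing unplaced intervals, and the H3K27ac difference for Sall4 was -0.146 points. In the highest 10% of the list the H3K4me3 difference was -3.86 points, where the share on chromosomes was 10.3%. Elsewhere the cause was not tested. Domains within 1 kb of the first base or of the last position reached on a sequence were left out in 1 setting. That kept 157 of 339 unplaced H3K27ac and 479 of 1188 unplaced H3K4me3 domains, and 4252 and 18188 on chromosomes. The difference in median width became 0 bp for H3K27ac and stayed -100 bp for H3K4me3. The last position reached is not a known end, so the effect of true ends was not tested. The share of Sall4 peaks in H3K4me3 domains had an interval of the difference that included 0 in 5 settings, and values between -3.76 and -1.13 points over its settings. The shares in the lowest 25% and 10% of each list, the omission of Zv8_NA542 and Zv8_NA543, the unplaced shares without the 10 fullest sequences and all settings for Cdx4-only and shared peaks were chosen after seeing the data. Depth is unknown, and the small counts, such as 22 unplaced Cdx4 peaks in H3K4me3 domains, limit the precision.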
